A study of Mus musculus with 4 samples.

Results

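The Sprouty genes (*Spry1*, *Spry2*, *Spry3* and *Spry4*) and the Spred genes (*Spred1*, *Spred2* and *Spred3*) were taken by name from a table of 30506 loci measured by RNA-Seq in mouse mammary tissue, and all 7 were found in it. The tissue came from virgin mice, 2 *miR-21+/+* and 2 *miR-21-/-*, labelled as 2 months old and all of the mixed strain 129SV::FVB/N::C57BL/6. The *miR-21-/-* mice lack the microRNA-21 gene, and the labels name no Cre, transgene or drug in either genotype. Poly(A) RNA was sequenced from whole gland, which holds epithelium, fat pad, vessels, nerve, immune cells and any attached muscle or lymph node. The deposited value is FPKM (sequenced fragments scaled to the length of the transcript's exons and to the number of mapped fragments), given once for each genotype and combining its 2 mice. Values per mouse were not analysed here, and the columns of the authors' own comparison were not used. The labels list each mouse as a separate replicate, and a pool below means only the combined value of a genotype's 2 mice. A difference below is between 2 pools, with no replicate check and no test.

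Sprouty and Spred proteins are brakes on the path from receptor tyrosine kinases through Ras and Raf to the kinases MEK and ERK. Sprouty proteins are made in response to growth factor signals and feed back on the receptors' adaptor proteins, and in lung, kidney and mammary gland they are known as restraints on branching of epithelial tubes. Spred proteins sit at the membrane and bring neurofibromin, a protein that switches Ras off, into contact with Ras. SPRY2 is a known target of miR-21 in other cells, and the study examined its mRNA for that reason. A target of a microRNA is usually bound through bases in its 3′ UTR (the untranslated end of the mRNA) that pair with the seed, bases 2 to 8 of the microRNA, and loss of the microRNA can leave more of the mRNA.

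The mature miR-21 is shown with the other mouse microRNAs of that name in RefSeq (GRCm38.p6), with the seed in capitals, because the seed decides which sites were searched for.
miR-21a-5p: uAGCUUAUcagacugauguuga
miR-21b: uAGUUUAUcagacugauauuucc
miR-21c: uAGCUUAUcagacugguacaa
In mm9, the genome build of the files, the 22 bases of miR-21a-5p lie at chr11:86397622-86397643 on the minus strand, in the last exon of *Vmp1*. The seed of miR-21c is the same as that of miR-21a, while that of miR-21b differs by 1 base. Poly(A) RNA-Seq does not measure mature microRNAs. The table lists *Mir21* and its host gene *Vmp1* as 1 locus, at 42.5 FPKM in *miR-21+/+* and 68.2 FPKM in *miR-21-/-* glands. This merged value does not separate *Mir21* from *Vmp1* and does not check the genotype labels.

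*Spry1* and *Spry2* each held an 8mer match to miR-21, the longest kind of seed site, in the 3′ UTR. The 30 bases ending at each site are printed in mm9, in the direction of transcription, with the 8mer in capitals, since no other match longer than 6 bases was found in the 6 members with an annotated 3′ UTR.
Spry1: aagtaaccatgtaagtgcttaaATAAGCTA
Spry2: agaagttggagacccacattgcATAAGCTA
The *Spry1* window is chr3:37542773-37542802 on the plus strand, and the site itself, from 37542795 to 37542802, was in the 3′ UTR of every annotated coding transcript of the gene. The *Spry2* window is chr14:106291715-106291744 on the minus strand, with the site from 106291715 to 106291722. The 8 bases are the same in both genes because the search defines an 8mer as that sequence. In the full-length *Spry1* transcripts the core of 6 bases started 323 nt into a 3′ UTR of 1047 nt. In the shorter coding transcript with the longest *Spry1* 3′ UTR, of 1158 nt, it started 442 nt in. In *Spry2* the core started 299 nt into the 854-nt 3′ UTR.

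**Figure D1:**
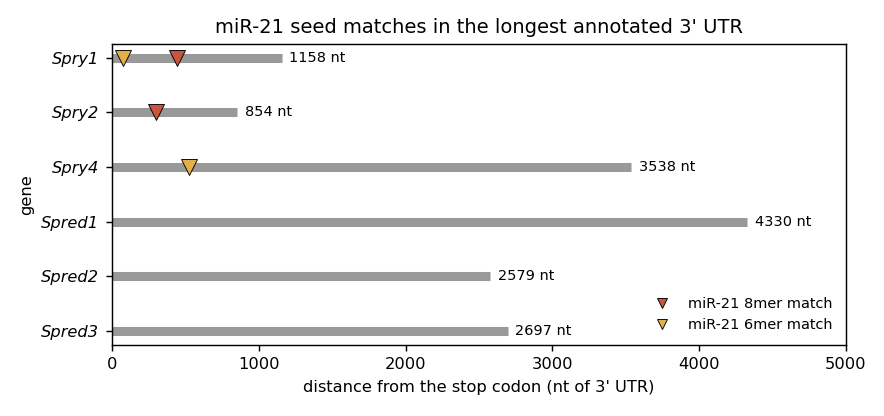
Grey bars show the longest annotated 3′ UTR of each member to scale, from the stop codon (nt, horizontal axis), and triangles mark matches to the miR-21 seed. *Spry1* and *Spry2* have an 8mer each, *Spry1* and *Spry4* a 6mer each, and the 3 Spred genes none.

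The search covered both the 8mer (ATAAGCTA) and its parts, the 7mer-m8 (ATAAGCT), the 7mer-A1 (TAAGCTA) and the 6mer (TAAGCT), on the transcript's strand, with each core counted in its longest class only. *Spry4* held only a 6mer, 522 nt into a 3′ UTR of 3538 nt. A second match in *Spry1*, also a 6mer, lay in the 3′ UTR of 1 shorter coding transcript alone, and in the other *Spry1* transcripts those bases are coding sequence. None of these words occurred in the 3′ UTRs of *Spred1* (4330 nt), *Spred2* (2579 nt) and *Spred3* (2697 nt), although each was longer than those of *Spry1* and *Spry2*. An 8mer or 7mer-m8 was thus present in 2 of the 6 members with an annotated 3′ UTR. Of the 12821 genes with a mean of at least 1 FPKM and an annotated 3′ UTR, 6.76% held such a match and 2.02% an 8mer. These letters are a description of the sequence and not a measured binding site, and *Spry2* was already named by the study as a target. *Spry1* is also on the list of miR-21 targets from general knowledge used below. Both genes with an 8mer were therefore known as targets beforehand, and their share is not independent of that knowledge.

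The members also differed in how their genes are built. The coding sequence of *Spry2* and *Spry4*, and of the full-length *Spry1* transcripts, was annotated in a single exon, with 315, 300 and 313 codons. That of the longest Spred transcripts was spread over 7 exons in *Spred1*, 7 in *Spred2* and 5 in *Spred3*, with 444, 437 and 408 codons. In mm9 the table's loci ran from 37538872 to 37543521 on chromosome 3 for *Spry1*, from 106291164 to 106296036 on chromosome 14 for *Spry2*, and from 38745919 to 38761029 on chromosome 18 for *Spry4*. *Spred1* ran from 116947186 to 117008083 on chromosome 2, *Spred2* from 19824104 to 19924038 on chromosome 11, and *Spred3* from 29942385 to 29953666 on chromosome 7. *Spred2* is the only member on the chromosome of *Mir21*, at a distance of 66.5 Mb. No other annotated gene overlapped the locus of any of these 6 members.

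Levels between genes are compared as FPKM, which is per length of transcript. *Spred1* was the highest member in both genotypes, at 19.8 FPKM in *miR-21+/+* and 18.3 FPKM in *miR-21-/-* glands. *Spry1* was second, at 12.5 and 10.5 FPKM, followed by *Spred2* at 10.1 and 9.99 FPKM and *Spry2* at 8.32 and 9.86 FPKM. The first 4 places were therefore the same in both genotypes, but *Spry1*, *Spred2* and *Spry2* lay within 10.5 and 9.86 FPKM of each other in *miR-21-/-* glands, and with 1 value per genotype their order cannot be set against a spread. *Spry4* and *Spred3* were lower and changed places, *Spry4* at 4.60 and 2.98 FPKM and *Spred3* at 2.77 and 4.37 FPKM. Among the 13096 gene entries with a mean of at least 1 FPKM, the mean of *Spred1* was at the 72.0th percentile, that of *Spry2* at the 48.0th and that of *Spred3* at the 20.2nd.

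**Figure D2:**
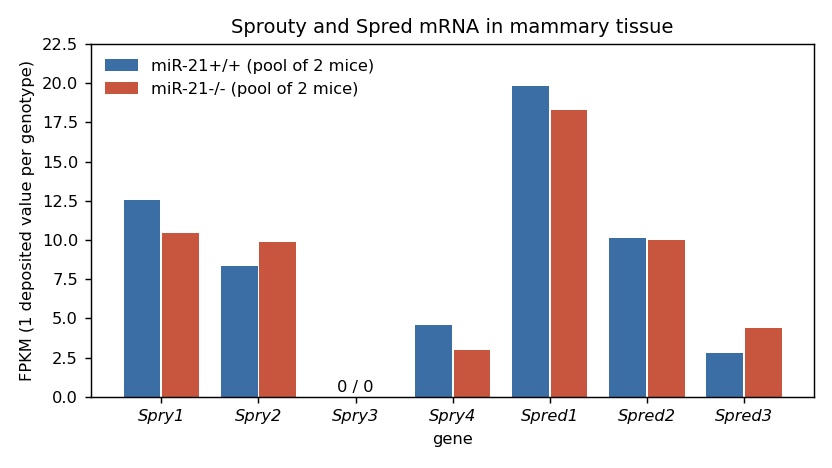
Bars give the deposited FPKM (vertical axis, linear from 0) of each member in *miR-21+/+* (blue) and *miR-21-/-* (red) glands, 1 value per pool of 2 mice and so without error bars. *Spred1* is highest at 19.8 and 18.3 FPKM, *Spry4* and *Spred3* are lowest and change places, and *Spry3* is listed at 0.

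*Spry3* was listed at 0 FPKM in both genotypes. Its locus was on an unplaced part of chromosome X in mm9, where all 8 named rows of the table were at 0, so the value was no measure of a difference between the genotypes. The other 6 members had a mean of at least 1 FPKM, a limit set on the mean of both genotypes so that both count alike. A gene high in only 1 of them can still pass it.

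No member differed by 2-fold or more between the genotypes (0 of 6). Of the 13096 gene entries, 3.85% did (1.71% higher and 2.14% lower in *miR-21-/-* glands). At 1.5-fold, 2 of the 6 members passed, *Spred3* higher and *Spry4* lower, where 10.8% of all entries passed (4.99% higher and 5.77% lower). Both are the low members, and among the 3741 entries with a mean from 1 to 5 FPKM, 20.2% passed 1.5-fold (9.25% higher and 10.9% lower). The median log2 fold change of the 6 members, *miR-21-/-* over *miR-21+/+*, was -0.07, beside -0.03 for all entries, and the median absolute change was 0.25 beside 0.14. With 6 genes and no values per mouse these are descriptions, and none was tested. Scaling both genotype columns to equal sums over all loci shifts every log2 fold change by -0.63, and under it *Spry4*, at -1.26, was 1 of 6 members at least 2-fold lower, where 11.5% of all entries were.

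*Spry2*, the member best known as a miR-21 target, had 8.32 FPKM in *miR-21+/+* and 9.86 FPKM in *miR-21-/-* glands, a log2 fold change of 0.25, or 1.19-fold. Its paralog *Spry1*, with the same 8mer, went the other way, with 12.5 and 10.5 FPKM and a log2 fold change of -0.26. In FPKM the differences were of similar size, 1.54 for *Spry2* and -2.06 for *Spry1*, and in opposite directions. In their class of expression, a mean from 5 to 20 FPKM, 23.9% of entries differed at least as much as *Spry2* and 22.3% at least as much as *Spry1*. Scaled to equal sums over all loci, which shifts every entry by -0.63, *Spry2* was lower in *miR-21-/-* glands, at -0.39. With equal sums over loci with a gene name it was higher, at 0.34, and centred on the median of gene entries it was at 0.27.

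*Spry4*, which is induced by fibroblast and vascular growth factor signals, had 4.60 FPKM in *miR-21+/+* and 2.98 FPKM in *miR-21-/-* glands, a log2 fold change of -0.63 or 1.54-fold lower. Among entries of its class, with a mean from 1 to 5 FPKM, 18.5% differed at least as much. The table holds a second row for *Spry4* at the same coordinates, with 0.893 FPKM in *miR-21+/+* and 0.959 FPKM in *miR-21-/-* glands. Added together the rows gave 5.49 and 3.94 FPKM, a log2 fold change of -0.48, which is under 1.5-fold. Which transcripts each row holds is not given in the sources used here.

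Among the Spred genes, *Spred1* and *Spred2* were close to equal in the 2 pools. *Spred1*, which is mutated in the human disorder Legius syndrome, had a log2 fold change of -0.12, and *Spred2* one of -0.02. Of the entries with a mean from 5 to 20 FPKM, 49.9% differed at least as much as *Spred1* and 91.3% at least as much as *Spred2*. *Spred3*, the lowest member in *miR-21+/+* glands, was higher in *miR-21-/-* glands, at 4.37 against 2.77 FPKM, a log2 fold change of 0.66 or 1.58-fold, and 17.0% of entries from 1 to 5 FPKM differed as much. Its nearest named neighbours were *Fam98c*, 657 bp away, at 7.14 FPKM in *miR-21+/+* and 7.73 FPKM in *miR-21-/-* glands, and *Ggn*, 1562 bp away, at 0.483 and 0.652 FPKM.

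The amounts of each family were also summed. The 3 Spred genes came to 32.7 FPKM in *miR-21+/+* and 32.6 FPKM in *miR-21-/-* glands, with *Spred1* giving 60.6% and 56.0% of the sum. The 4 Sprouty genes came to 25.4 and 23.3 FPKM, with *Spry1* giving 49.2% and 44.9%. Together the *miR-21-/-* sum was 96.2% of the *miR-21+/+* sum. The lower values of *Spry1* and *Spry4* and the higher value of *Spry2* thus left the Sprouty sum at 91.6%, and within the Spred genes the lower *Spred1* and the higher *Spred3* nearly cancelled.

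**Figure D3:**
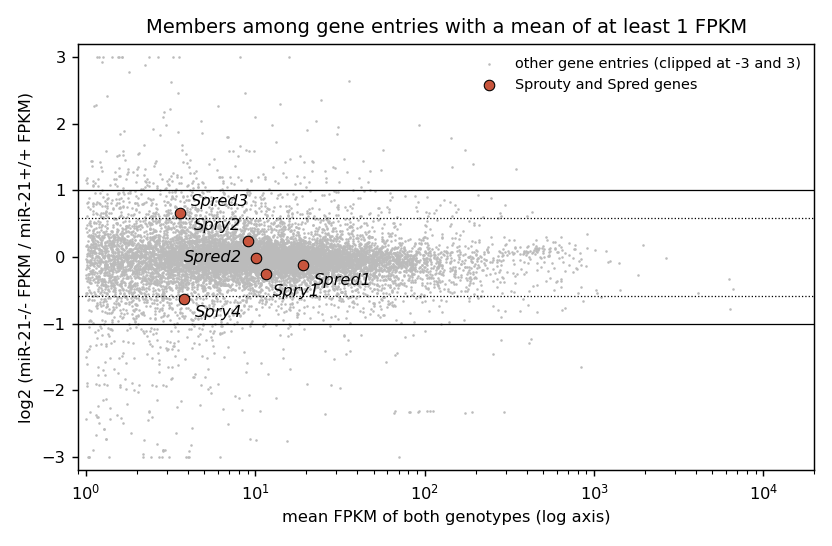
Each grey point is a gene entry with a mean of at least 1 FPKM, placed by that mean (log axis) and by the log2 ratio of *miR-21-/-* to *miR-21+/+* FPKM, and red points are the 6 expressed members. Solid lines mark 2-fold and dotted lines 1.5-fold: no member passes the solid lines, and *Spred3* (0.66) and *Spry4* (-0.63) pass the dotted ones.

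The path that these proteins restrain was described with gene lists written from general knowledge, with earlier results of these data known. Beside the counts in these lists stand the shares of all entries, 3.85% at 2-fold and 10.8% at 1.5-fold. The core from adaptors to ERK, for example *Grb2* (the adaptor that recruits the Ras activator Sos) and *Frs2* (the adaptor of fibroblast growth factor receptors), was even between the pools. None of its 22 genes with a mean of at least 1 FPKM differed by 2-fold, and 1 differed by 1.5-fold, *Ksr1*, a scaffold that holds Raf, MEK and ERK together, at 5.42 and 9.003 FPKM. *Grb2* had 27.4 and 25.5 FPKM, and *Frs2* had 9.61 and 9.91 FPKM. The median log2 fold change of the core was 0.05.

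Genes switched on by ERK signals ranged from -1.14 to 1.05 in log2 fold change, with a median of 0.05. Of 17 such genes, which include the members *Spry2*, *Spry4*, *Spred1* and *Spred2*, 2 were at least 2-fold higher and 1 at least 2-fold lower in *miR-21-/-* glands, and at 1.5-fold these counts were 4 and 2. Of all entries with a mean of at least 1 FPKM, 1.71% were higher and 2.14% lower at 2-fold, and 4.99% and 5.77% at 1.5-fold. *Egr1*, an immediate early transcription factor, had 7.89 FPKM in *miR-21+/+* and 16.03 FPKM in *miR-21-/-* glands. *Phlda1* had 12.9 and 26.8 FPKM. The others that were higher by 1.5-fold were *Fos*, also an immediate early gene, at 6.95 and 12.99 FPKM, and *Dusp5*, a nuclear ERK phosphatase, which was low in both pools at 1.90 and 3.28 FPKM, or 1.73-fold. The gene that was lower was *Etv4*, a transcription factor induced by fibroblast growth factors, at 7.74 and 3.51 FPKM, and the other gene lower by 1.5-fold was *Spry4* itself. *Etv5* had 9.19 and 8.64 FPKM, and *Dusp6*, the phosphatase that removes phosphate from ERK, had 18.3 and 16.7 FPKM.

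Other brakes on receptors and Ras, and the proteins that Sprouty and Spred bind, differed little. Of 20 other brakes 1 differed by 2-fold, *Rasal1*, which speeds the switching off of Ras, at 1.14 and 2.85 FPKM. *Nf1*, which encodes the neurofibromin that Spred proteins recruit, had 6.20 and 6.38 FPKM, and *Rasa1* had 17.3 and 15.0 FPKM. Of the 16 binding partners none differed by 2-fold. *Cbl*, the ubiquitin ligase that binds tyrosine-phosphorylated Sprouty, had 11.1 and 10.1 FPKM, and *Cav1*, a membrane protein that binds both families, had 307 and 368 FPKM. The partner that differed by 1.5-fold was *Kit*, a receptor known to be restrained by Spred proteins, at 20.1 and 35.9 FPKM.

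Upstream of the members, none of 19 receptors and ligands with a mean of at least 1 FPKM differed by 2-fold, and the 3 that differed by 1.5-fold were all higher in *miR-21-/-* glands. At 1.5-fold 4.99% of all entries were higher and 5.77% lower. The 3 genes were *Kit*, *Areg* (amphiregulin, the epidermal growth factor family ligand of ductal growth) at 44.5 and 83.0 FPKM, and *Fgf7* at 1.98 and 3.11 FPKM. *Fgf10*, the stromal ligand of epithelial branching, had 24.7 and 20.8 FPKM, and its receptor *Fgfr2* had 26.3 and 24.8 FPKM. Over all 6 lists, which share some genes and include the miR-21 targets below, 102 different genes had a mean of at least 1 FPKM. Of these 3 were 2-fold higher and 2 were 2-fold lower, beside the 1.71% and 2.14% of all entries given above. At 1.5-fold 10 were higher and 3 lower, beside 4.99% and 5.77%.

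The list of miR-21 targets, which includes *Spry1* and *Spry2*, also showed no common direction. Of its 15 genes above the limit 8 had more mRNA without miR-21 and 7 had less. The median log2 fold change was 0.06, beside -0.03 for all entries with a mean of at least 1 FPKM. *Pdcd4*, an inhibitor of translation, had 43.9 and 45.7 FPKM. *Tpm1*, a tropomyosin gene, was 1.71-fold higher, at 220 and 376 FPKM, and *Ppara*, a regulator of fat burning, was 2.16-fold lower, at 7.73 and 3.58 FPKM.

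**Figure D4:**
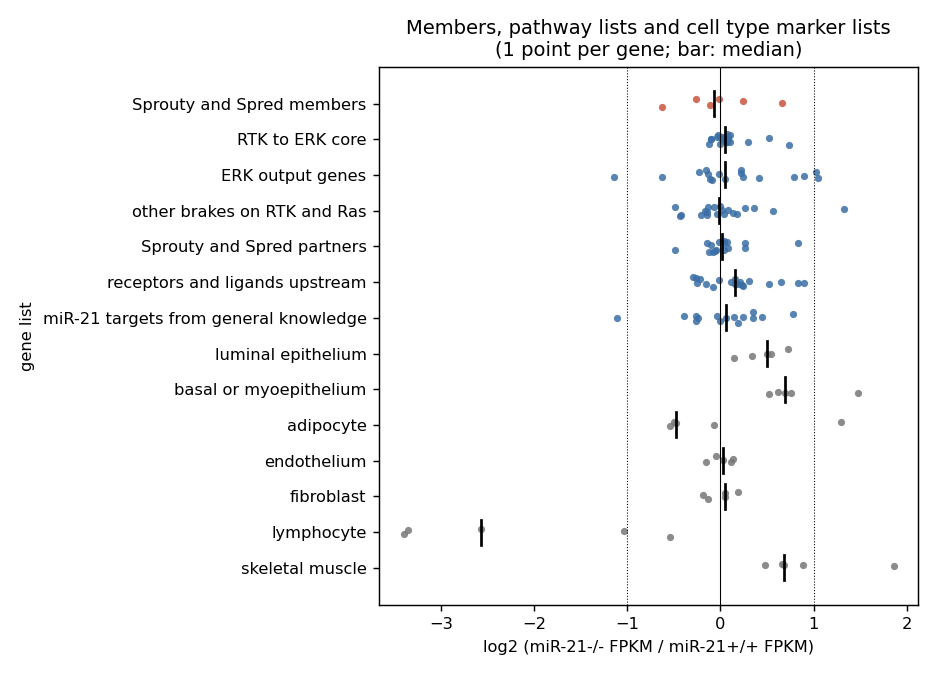
Points are genes with a mean of at least 1 FPKM, placed by the log2 ratio of *miR-21-/-* to *miR-21+/+* FPKM, in the members (red), 6 pathway lists (blue) and 7 cell type marker lists (grey), with a black bar at the median and dotted lines at 2-fold. The members and pathway lists centre near 0, between -0.07 and 0.16, while the lymphocyte markers centre at -2.57 and the epithelial and muscle markers between 0.50 and 0.70.

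Cell type markers differed between the 2 pools, and their part in the values above was not tested. All 5 lymphocyte markers were lower in *miR-21-/-* glands, 4 of them by 2-fold or more, with a summed level of 112 and 61.3 FPKM. Most of that sum was *Cd79a*, whose locus is merged with *Arhgef1* (70.3 and 48.3 FPKM), and the other 4 markers came to 41.8 and 12.98 FPKM. Most of the latter was *Ptprc*, which is not restricted to lymphocytes, at 21.6 and 10.5 FPKM. *Ms4a1*, a defining B cell marker, was at 5.61 and 0.549 FPKM. All 5 luminal markers (sum 578 and 780 FPKM), all 5 basal markers (298 and 481 FPKM, or 275 and 442 FPKM without *Krt14*, whose locus is merged with another gene) and all 5 skeletal muscle markers (882 and 1421 FPKM) were higher in *miR-21-/-* glands. Of 5 adipocyte markers 4 were lower (sum of all 5 10251 and 7471 FPKM, most of it *Fabp4* at 7677 and 5523 FPKM), with *Plin1* at 392 and 374 FPKM, while *Lep*, which encodes leptin, was 2.45-fold higher, at 27.7 and 67.9 FPKM. Endothelial (134 and 139 FPKM) and fibroblast markers (2951 and 2815 FPKM) were close to even. None of the defining markers was at 0, so the labelled tissue is a mixture of these cells, and in whole tissue fewer cells of a type and less RNA per cell cannot be told apart.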

How the data were processed

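Mammary poly(A) RNA of 2 *miR-21+/+* and 2 *miR-21-/-* mice was sequenced as single-end reads. Per the labels and the study's methods, reads were aligned to mm9 with TopHat. The authors estimated the FPKM values with Cufflinks, and each deposited value combines the 2 replicate mice of a genotype. Versions, annotation and further normalization options are not given in the sources used here. The columns of the authors' own comparison (fold change, test statistic, p-value, q-value, call) were not used. Low FPKM values showed no steps of whole reads, so library depth is unknown and no counting interval is given.

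From the 2 FPKM columns, log2 ratios were computed without a pseudocount. Of several rows with a name (492 entries), the one with the highest mean was kept, which left 21895 named entries, 13096 of them with a mean of at least 1 FPKM. A merged locus counted for each of its names. Starts in the table count from 0 (7327 annotated starts matched after adding 1 and 424 as printed), and coordinates are given from 1. Seed matches were sought in the longest 3′ UTR of each gene, from GENCODE vM1 and the NCBIM37 (mm9) sequence, without the stop codon. The finder and the ratios were tested on simulated data. Some list genes are not reported here.

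The members, lists and rule were chosen with earlier results of these data known. Named genes are the members, *Mir21* with *Vmp1*, list genes, the neighbours of *Spred3* (chosen after their values were seen) and the 3 entries nearest to the highest member. Alternatives were 3 scalings, pseudocounts of 1 and 0.1 FPKM, other limits, summed rows and other site classes. A value was said to move when it changed by over 0.1 on the log2 scale. Python 3.11.15, numpy 2.4.6, pandas 2.3.3 and matplotlib 3.10.9 were used.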

Additional observations from a re-analysis of the deposited data

How the results depend on the processing

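No paired analysis was possible because 1 combined value per genotype was used, and for the same reason no fit with a replicate block or with a mouse left out was run. Scaling both columns to equal sums over all loci shifts every log2 fold change by -0.63, since loci without a gene name held 49.9% of the *miR-21+/+* and 69.8% of the *miR-21-/-* sum. Under it the values were -0.89 for *Spry1*, -0.39 for *Spry2*, -1.26 for *Spry4*, -0.75 for *Spred1*, -0.65 for *Spred2* and 0.025 for *Spred3*, with a median of -0.70, so *Spry4* passed 2-fold, as did 11.5% of all entries in that direction, and *Spry2* changed direction. Equal sums over named loci (a shift of 0.10) and centring on the median (0.03) moved no member by over 0.1, though *Spred2*, and under the former the members' median, came out above 0. With a pseudocount of 1 FPKM *Spry4* was at -0.49 and *Spred3* at 0.51, and with its rows summed *Spry4* was at -0.48. At 1.5-fold in place of 2-fold, 2 in place of 0 of the 6 members passed. Of the 102 genes of the 6 lists, miR-21 targets included, 13 in place of 5 passed, 10 higher and 3 lower at 1.5-fold. Of all entries 10.8% passed 1.5-fold and 3.85% passed 2-fold. Of 36 member values under alternatives 9 moved. Depth is unknown, which limits most what can be read from the low members *Spry4* and *Spred3*.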

Other observations

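In the plane of both genotypes' FPKM, the 3 named entries nearest to *Spred1*, the highest member, were *Taf1d* (19.8 and 18.2 FPKM), *Mkln1* (19.7 and 18.4 FPKM) and *Serf1* (20.03 and 18.2 FPKM). With 2 values per gene such likeness is common, and 134 entries lay within 0.1 of *Spred1* on the log2 scale. *Spry4* was among 347 named entries with several rows at the same coordinates.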
